A study of Bos grunniens with 6 samples.

Results

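INHBA (ENSBGRG00000009678) and SMAD4 (ENSBGRG00000024537) were followed in yak (Bos grunniens) testis before and after sexual maturity. They were chosen by gene ID as the ligand and the shared signal carrier of activin signalling, and are 2 of the 20953 genes with an expression value. The paper lists both among genes whose m6A and mRNA changed significantly between these ages. Their changes here, from the same yaks, are therefore not independent evidence. The 2 genes hold 7 of the 16318 m6A peaks. m6A is N6-methyladenosine, a methyl mark on adenosines of mRNA. Testis parenchyma came from 3 healthy juvenile males aged 6 months (Y6M) and 3 sexually mature males aged 30 months (Y30M), with no treatment. Fragmented poly(A) RNA of each yak was sequenced as an input library and after immunoprecipitation (IP) with an m6A antibody. Bulk testis holds many cell types, and expression is measured as a share of each library. Fewer cells of a type, less RNA per cell and more RNA from other cells thus cannot be told apart.

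INHBA encodes the beta A chain. A pair of beta chains forms activin, which signals, whereas a beta chain joined to the inhibin alpha chain forms inhibin, which opposes it. Activin binds a type II receptor, which recruits a type I receptor, and the latter phosphorylates receptor SMAD proteins. These join SMAD4, the common partner also used by the TGF-beta and BMP branches, and enter the nucleus to regulate transcription. In the testis, Sertoli cells are a known source of activin and inhibin, and activin is known to act on Sertoli cell proliferation and on early germ cells.

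The primers that the study designed for quantitative PCR of both genes are shown. That assay, not the sequencing, recognised each transcript by these sequences. They are written 5′ to 3′, and each has 20 bases.

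INHBA forward: ggagcaaagtcaccatccgt

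INHBA reverse: ctgctcacaggcaatccgta

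SMAD4 forward: gtggcttccacaagtcagcc

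SMAD4 reverse: gtgcagtcctacttcccgtc

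The GC content was 55.0% in both INHBA primers and 60.0% in both SMAD4 primers. The paper reports that PCR of both genes followed a trend similar to its sequencing. PCR values were not analysed here.

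Expression was given as FPKM, the fragments of a gene scaled by transcript length and by library size, in the input libraries. These listed 16947 to 18052 genes above 0. The deepest library had 1.07 times, and the shallowest 0.752 times, the depth of Y30M replicate 1. A gene was called as changed where the unadjusted limma p was 0.05 or less and the groups differed 1.5-fold or more. By this rule 46.3% of the 19477 genes tested were called, of which 5320 were higher and 3691 lower in Y30M. The values of 1 gene must be read against this wide background.

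INHBA fell steeply with maturity. Its FPKM in Y6M replicates 1, 2 and 3 was 93.6, 93.3 and 128.7. In the Y30M replicates it was 5.32, 3.93 and 8.455. The lowest juvenile library lay far above the highest mature one, and replicate 3 was the highest library at both ages. The mean went from 105.2 ± 20.3 to 5.90 ± 2.32 (SD, n = 3), a ratio of 17.8. The log2 fold change on the log2(FPKM + 1) scale was -3.98 (SE 0.28, 95% interval -4.68 to -3.28, limma with Benjamini-Hochberg adjustment, adjusted p = 0.000308).

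SMAD4 fell less. Its FPKM was 20.45, 20.8 and 25.9 in juveniles. In mature yaks it was 14.25, 7.39 and 13.25. The groups did not overlap, and Y30M replicate 2 was the lowest library. The mean went from 22.4 ± 3.04 to 11.6 ± 3.71 (SD, n = 3), a ratio of 1.92. The log2 fold change was -0.93 (SE 0.263, 95% interval -1.59 to -0.27, limma, adjusted p = 0.0366). The call of SMAD4 was lost when both libraries numbered 3 were left out, where the log2 fold change was -0.935 (SE 0.341, limma adjusted p = 0.111). Leaving out Y30M replicate 2 alone gave -0.657. The call uses the unadjusted p. With 1 library left out, the limma adjusted p was 0.0822, 0.0871 and 0.101 without Y6M replicates 1, 2 and 3. It was 0.0388, 0.0272 and 0.0525 without Y30M replicates 1, 2 and 3.

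**Figure D1:**
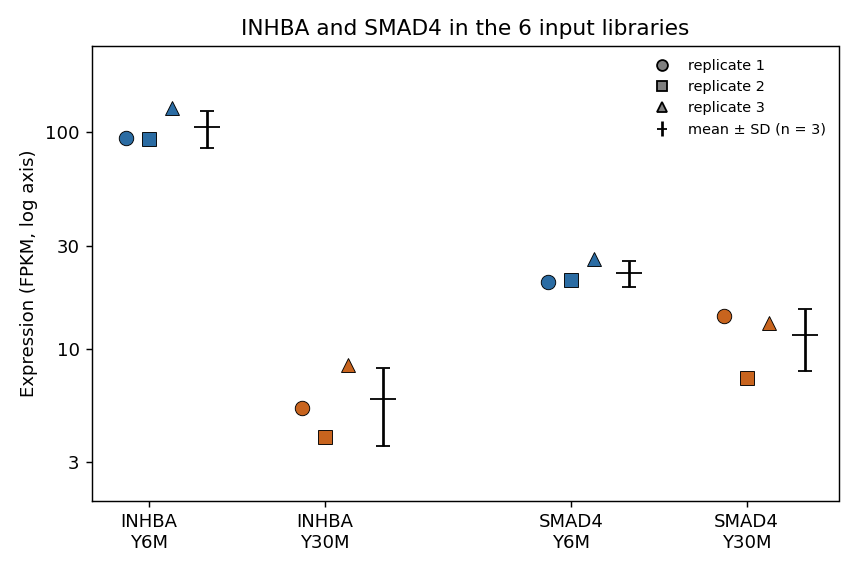
FPKM (log axis) of INHBA and SMAD4 in each input library, with symbols for the replicate number and bars for the mean and SD (n = 3). The INHBA libraries lie between 93.3 and 128.7 in Y6M and between 3.93 and 8.455 in Y30M, while those of SMAD4 lie closer together.

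Both genes were called lower, a direction that 19.0% of all genes tested took. Their groups did not overlap, as held for 54.1% of genes. INHBA ranked 58 of 19477 by its log2 fold change on the log2(FPKM + 1) scale. On that scale 0.293% of genes had a lower value than INHBA, whereas 15.9% had a lower one than SMAD4. The 1 added to each FPKM shrinks the falls of genes with low FPKM, so such a rank favours abundant genes. In the juvenile libraries INHBA was above 95.4 to 96.9% of genes. In the mature libraries it was above 49.7 to 56.8%. SMAD4 went from above 80.1 to 82.5% of genes to above 59.7 to 66.4%. Since the paper had listed both genes as changed, these ranks are a description only.

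Since whole fragments were counted, relative library depths gave the smallest whole numbers of fragments from which each set of FPKM can arise. For INHBA these were 11027, 12476 and 12508 in the juvenile libraries and 688, 543 and 1144 in the mature ones. For SMAD4 they were 2136, 2468 and 2232 in juveniles and 1634, 905 and 1591 in mature yaks. Counting error in the lowest library was then 4.29% for INHBA and 3.32% for SMAD4, below the spread between replicates.

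FPKM is scaled by length, so the genes can be set against each other within a library. INHBA was 4.58, 4.48 and 4.97 times SMAD4 in the juvenile libraries. It was 0.374, 0.532 and 0.638 times SMAD4 in the mature ones. The order of both genes was thus reversed in every library of the other age. On the log2 scale with 1 added to each FPKM the ratio differed by -3.05 (exact two-sided permutation p = 0.1, 0.13 after adjustment over 8 pairs). With 3 libraries against 3 this test cannot go below 0.1.

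The rest of the pathway was read from a list of 52 symbols, of which 11 could be paired with a gene ID. Names came from tables of peaks and genes that the study had selected for differing between ages, 9 of the 11 from the peaks and 2 from the genes, so their changes are not independent evidence of a direction. Of the 11 genes, 2 were called higher, against 27.3% of all genes, and 5 lower, against 19.0%. The other 4 were not called. The median log2 fold change of the 11, with INHBA and SMAD4 among them, was -0.50, beside 0.0355 over all genes tested. Without INHBA and SMAD4 the list had 9 genes, with 2 higher and 3 lower.

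Among the ligands, GDF9, a factor best known from the oocyte, moved opposite to INHBA. Juvenile libraries had FPKM of 0.207, 0.284 and 0, and mature ones 4.785, 4.05 and 7.36. The juvenile values rested on 9, 14 and 0 fragments, whereas the mature ones rested on 206 to 367. The log2 fold change was 2.43 (SE 0.223, limma, adjusted p = 0.000708). BMP2, a ligand of the BMP branch, was low at both ages and was not called, with FPKM means of 1.22 ± 0.422 and 0.794 ± 0.226 (SD, n = 3).

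LTBP1, which holds latent TGF-beta in the extracellular matrix, was the one extracellular regulator with a paired ID. It fell from 6.88 ± 2.18 to 2.08 ± 0.605 FPKM (SD, n = 3), a log2 fold change of -1.34 (SE 0.252, limma, adjusted p = 0.0091). The activin antagonists FST and FSTL3 and the inhibin alpha chain INHA could not be paired and were not analysed here.

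Both type II receptors of activin were measured, and neither was called. ACVR2A had FPKM of 2.44, 2.90 and 6.20 in juveniles, beside 1.99, 1.36 and 3.84 in mature yaks. The groups overlapped, and replicate 3 was the highest at both ages. Its log2 fold change was -0.50 (SE 0.393, 95% interval -1.49 to 0.49, limma, adjusted p = 0.376). Within each replicate number ACVR2A was lower in Y30M, and with the replicate block its adjusted p was 0.0627, with no call. ACVR2B had 5.21, 5.98 and 5.10 in juveniles, beside 10.7, 7.015 and 4.87 in mature yaks. Its log2 fold change was 0.35 (SE 0.264, 95% interval -0.31 to 1.02, limma, adjusted p = 0.353). ACVR2B was called higher only where Y30M replicate 3 was left out, among the settings tried.

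The type II receptor of TGF-beta, TGFBR2, fell clearly. Its juvenile FPKM was 26.4, 33.2 and 38.6 and its mature FPKM 7.21, 5.50 and 7.76, with a wide gap between the groups. The log2 fold change was -2.10 (SE 0.191, limma, adjusted p = 0.000685). The BMP receptors were called in opposite directions, but with adjusted p above 0.05. BMPR1B, a type I receptor, went from 0.587 ± 0.445 to 1.98 ± 0.997 FPKM (SD, n = 3), with a log2 fold change of 0.90 (SE 0.304, limma, adjusted p = 0.0637). BMPR2, a type II receptor, went from 7.12 ± 2.77 to 3.64 ± 1.10 FPKM (SD, n = 3), with a log2 fold change of -0.79 (SE 0.304, limma, adjusted p = 0.0922). The call of BMPR2 was lost with 5 of the 6 libraries left out in turn, all but Y6M replicate 1. The call of BMPR1B was lost without Y6M replicate 1, Y6M replicate 2 or Y30M replicate 3.

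SMAD4 was the one SMAD with a paired ID. Of the target genes, ID1, a transcriptional inhibitor induced by BMP signalling, was measured and was not called. Its mean FPKM was 6.80 ± 1.76 in Y6M and 5.46 ± 1.99 in Y30M (SD, n = 3), and its log2 fold change was -0.30 (SE 0.307, 95% interval -1.07 to 0.48).

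**Figure D2:**
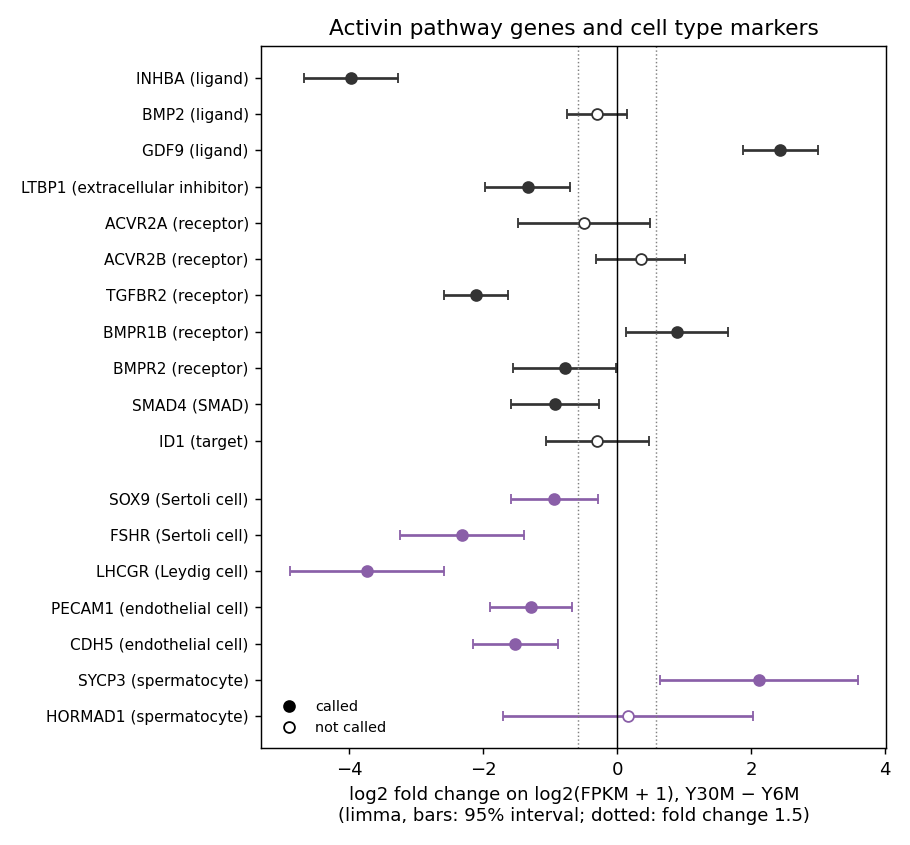
Log2 fold change of Y30M against Y6M, on log2(FPKM + 1), for the 11 pathway genes (black, role in brackets) and 7 cell type markers (purple), with 95% limma intervals and filled points for called genes. INHBA stands at -3.98, beside the Leydig cell marker LHCGR at -3.74, while the activin receptors ACVR2A and ACVR2B cross 0.

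Markers of somatic testis cells were lower in Y30M too. The names of the somatic markers came from the table of differing peaks, and that of the spermatocyte marker SYCP3 is in the table of differing genes, so their directions are not independent evidence. SOX9, a transcription factor of Sertoli cells, went from 38.1 ± 3.79 to 20.1 ± 7.27 FPKM (SD, n = 3). FSHR, the receptor of follicle-stimulating hormone on Sertoli cells, went from 41.5 ± 17.3 to 7.23 ± 2.17. LHCGR, the luteinizing hormone receptor of Leydig cells, went from 47.1 ± 17.6 to 2.83 ± 2.20. All of these fell, with limma adjusted p of 0.0333, 0.00488 and 0.00196. The summed FPKM of the Sertoli cell markers (2 of 7 paired) was 65.7 to 93.2 in juveniles, against 19.5 to 35.4 later. Leydig cells rested on LHCGR alone (1 of 6 paired). That of the endothelial markers PECAM1 and CDH5 (2 of 3 paired) was 14.8 to 22.0 in juveniles, against 3.69 to 6.95 later. The spermatocyte markers (2 of 5 paired) summed to 8.47 to 28.0 in Y6M and 13.2 to 68.0 in Y30M, and replicate 3 was the highest at both ages. SYCP3, a protein of the meiotic chromosome axis, rose with a log2 fold change of 2.12 (SE 0.589, limma, adjusted p = 0.0344). HORMAD1, a protein of the same axis, was not called, and its groups overlapped (log2 fold change 0.16, SE 0.744, limma, adjusted p = 0.91). No paired marker was at 0 in all libraries, and no marker of peritubular cells, macrophages, spermatogonia, spermatids or red blood cells could be paired. In tissue sections, the paper reports more interstitial cells in mature yaks and no spermatocytes in juveniles, so these marker levels are not cell counts. The part of cell composition in the fall of INHBA and SMAD4 was not tested.

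The ratio of each gene to these markers was taken within each library. INHBA was 2.17 to 3.75 times FSHR in Y6M and 0.748 to 0.895 times FSHR in Y30M, a difference of -1.66 on the log2 scale. Against SOX9 it went from 2.28 to 3.81 times in juveniles to 0.188 to 0.483 times in mature yaks (difference -3.04, exact permutation p = 0.1). It was 1.91 to 2.71 times LHCGR in Y6M and 1.58 to 3.18 times LHCGR in Y30M, and these ranges overlapped (difference -0.242, exact permutation p = 0.5). SMAD4 was 0.515, 0.509 and 0.766 times SOX9 in Y6M and 0.504, 0.513 and 0.757 times SOX9 in Y30M (difference 0.0147, exact permutation p = 1.0). SMAD4 was 0.436 to 0.837 times FSHR in Y6M and 1.40 to 2.0 times FSHR in Y30M (difference 1.39, exact permutation p = 0.1). Against LHCGR it went from 0.385 to 0.604 times in juveniles to 2.47 to 8.52 times in mature yaks (difference 2.81, exact permutation p = 0.1). A p above the threshold with 3 libraries a group does not show that a ratio stayed the same.

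**Figure D3:**
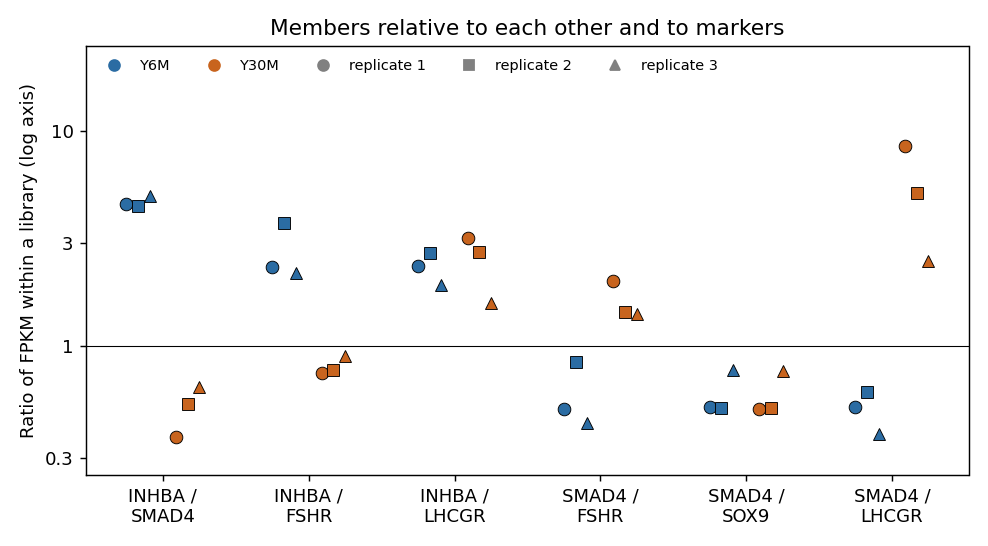
Ratio of FPKM within a library (log axis) of INHBA to SMAD4, FSHR and LHCGR, and of SMAD4 to FSHR, SOX9 and LHCGR. Colour gives the age and symbol the replicate. INHBA over SMAD4 passes from above 4 in Y6M to below 1 in Y30M, whereas SMAD4 over SOX9 covers 0.509 to 0.766 in juveniles and 0.504 to 0.757 in mature yaks.

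The genes with the pattern most like each were sought among 1962 named genes (mean FPKM 1 or more), by Pearson correlation of log2(FPKM + 1) over the 6 libraries. The libraries fall into 2 ages, so r mostly reflects the step between them. INHBA was most like MR1 (r = 0.9993), PLPP3 (0.9987), ASIC2 (0.9982), PLS1 (0.9981) and POGLUT3 (0.9974). Of these, PLPP3 had mean FPKM of 103.7 in Y6M and 17.1 in Y30M, and POGLUT3 had 50.8 and 2.54. SMAD4 was most like CERS1 (0.998), ZBTB38 (0.9937), FNBP4 (0.992), CTNNB1 (0.9914) and ACO1 (0.9911). CTNNB1, which encodes beta-catenin, had mean FPKM of 89.9 in Y6M and 52.6 in Y30M. Within the pathway list INHBA was closest to TGFBR2 (0.994) and SMAD4 to LTBP1 (0.955), while the correlation of INHBA with SMAD4 was 0.899. A correlation of at least 0.95 was reached by 197 named genes with INHBA and by 113 with SMAD4.

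The transcripts of both genes carried several m6A peaks. Peaks were called over both ages together, so they have no replicate error. The fold enrichment is IP over input, and positions are those of LU_Bosgru_v3.0, numbered in the direction of transcription. INHBA, on the minus strand of chromosome 4, had 4 peaks. Peak 1 (44550838 to 44561479) joined 2 exon blocks of 449 and 348 bp across an unlisted stretch, with a fold enrichment of 2.58. Peak 2 (44550242 to 44550689, 448 bp) had the highest of the gene, 2.75. Peak 3 (44549993 to 44550142, 150 bp) had 2.10 and peak 4 (44549496 to 44549844, 349 bp) had 2.28. Gaps of only 148, 99 and 148 bp parted neighbouring peaks, and the peaks covered 1744 bp of exon together.

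SMAD4, on the plus strand of chromosome 21, had 3 peaks, each in a single block. Peak 1 (48486102 to 48486251, 150 bp) was weak, at 1.31, and 3.03% of all peaks were weaker. Peak 2 (48509408 to 48509706, 299 bp) had a fold enrichment of 3.09, and peak 3 (48543039 to 48543238, 200 bp) had 3.47, above 86.6% of all peaks. Gaps of 23156 and 33332 bp lay between them. Exonic sequence in the SMAD4 peaks came to 649 bp over 57137 bp of genome, whereas that of INHBA lay within 11984 bp. Whether a block lies in coding sequence or a UTR was not analysed here.

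At least 4 peaks, as on INHBA, were found on 8.08% of the 8809 genes with a peak, and 19.6% had at least as many as SMAD4. The median was 1 peak a gene. Among the peaks called from the Y6M samples, 1 overlapped 3 of the INHBA peaks and 1 overlapped 2 of the SMAD4 peaks. Such counts therefore depend on how a region was split into peaks. The median fold enrichment of all peaks was 2.31, so 4 of the 7 peaks lay above it (INHBA peaks 1 and 2, SMAD4 peaks 2 and 3). None of the 7 peaks passed an FDR of 0.05 for its own enrichment, although 69.0% of all peaks did. INHBA peak 2 had an FDR of 0.0741, and the other peaks were listed at an FDR of 1, as were 27.8% of all peaks. Of the 13670 peaks with a fold enrichment in the same range, 32.1% had an FDR above 0.05. No peak at an FDR of at most 0.05 was found on 26.6% of genes.

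**Figure D4:**
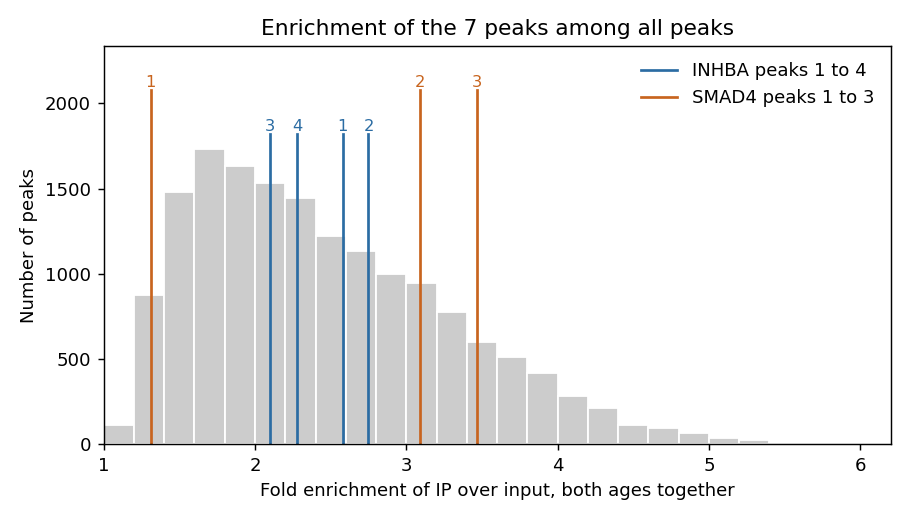
Histogram of the fold enrichment of IP over input of all 16318 peaks (number of peaks per bin), with lines at the INHBA and SMAD4 peaks, numbered in the direction of transcription. The INHBA peaks lie close together, between 2.10 and 2.75, and those of SMAD4 spread from 1.31 to 3.47.

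Of the other pathway genes, ACVR2A, ACVR2B, BMPR2, BMP2 and ID1 had peaks that passed an FDR of 0.05. ACVR2A had 1 peak, with a fold enrichment of 4.19 and an FDR of 4.68e-10. ACVR2B had 2 peaks, with 3.20 (FDR 3.47e-09) and 2.76 (FDR 1.32e-10). BMPR2 had peaks with 4.68 (FDR 1.05e-10) and 2.67 (FDR 7.94e-06). TGFBR2 had weak peaks of 1.26 and 1.70, both at an FDR of 1, and BMPR1B had none. Of the ligands, BMP2 had peaks of 2.69 and 1.60, both at an FDR of 0.000437, whereas GDF9 had the highest fold enrichment of the list, 4.86, at an FDR of 1. LTBP1 had 1 peak of 1.40 at an FDR of 1. ID1 had 1 peak of 2.34 with the lowest FDR of the list, 1.26e-17.

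A separate list covered the peaks called from the Y6M samples, which may also be called in Y30M. It scored adenosines inside them from 0 to 1 and named those at 0.528 or above as predicted m6A sites. Over all chromosomes 21.5% of scored adenosines were predicted. The Y30M list used here covered chromosomes 1 and 2, so INHBA and SMAD4 sites in mature testis were not analysed here. The Y6M peak of INHBA at 44549993 to 44561528 held 200 scored adenosines, of which 43 were predicted (21.5%, exact 95% binomial interval 16.0 to 27.8%). The peak at 44549397 to 44549844 held 4, of which 0 were predicted. The Y6M peak of SMAD4 at 48486052 to 48509706 held 416, of which 61 were predicted (14.7%, interval 11.4 to 18.4%), and that at 48543039 to 48543238 held 6, of which 3 were predicted. These intervals cover counting error only, and most of each long span lies outside the exon blocks.

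Inside the exon blocks few adenosines were scored. INHBA had 15, of which 6 were predicted (40.0%, interval 16.3 to 67.7%), and SMAD4 had 15, of which 5 were predicted (33.3%, interval 11.8 to 61.6%). Both intervals hold the share over all chromosomes, but that share also counts adenosines outside exon blocks. No share for the exon blocks of all peaks was calculated. Per 100 bp of block this was 0.344 predicted sites in INHBA and 0.77 in SMAD4. The highest score in INHBA was 0.676 at position 44550601, in peak 2, which held 3 of the 6 sites. The highest in SMAD4 was 0.776 at 48509514, in peak 2, and its peak 3 held 3 of the 5 sites. INHBA peak 3 and SMAD4 peak 1 held no scored adenosine. The list gave no strand, and a score is a prediction, not a measured methylation level.

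**Figure D5:**
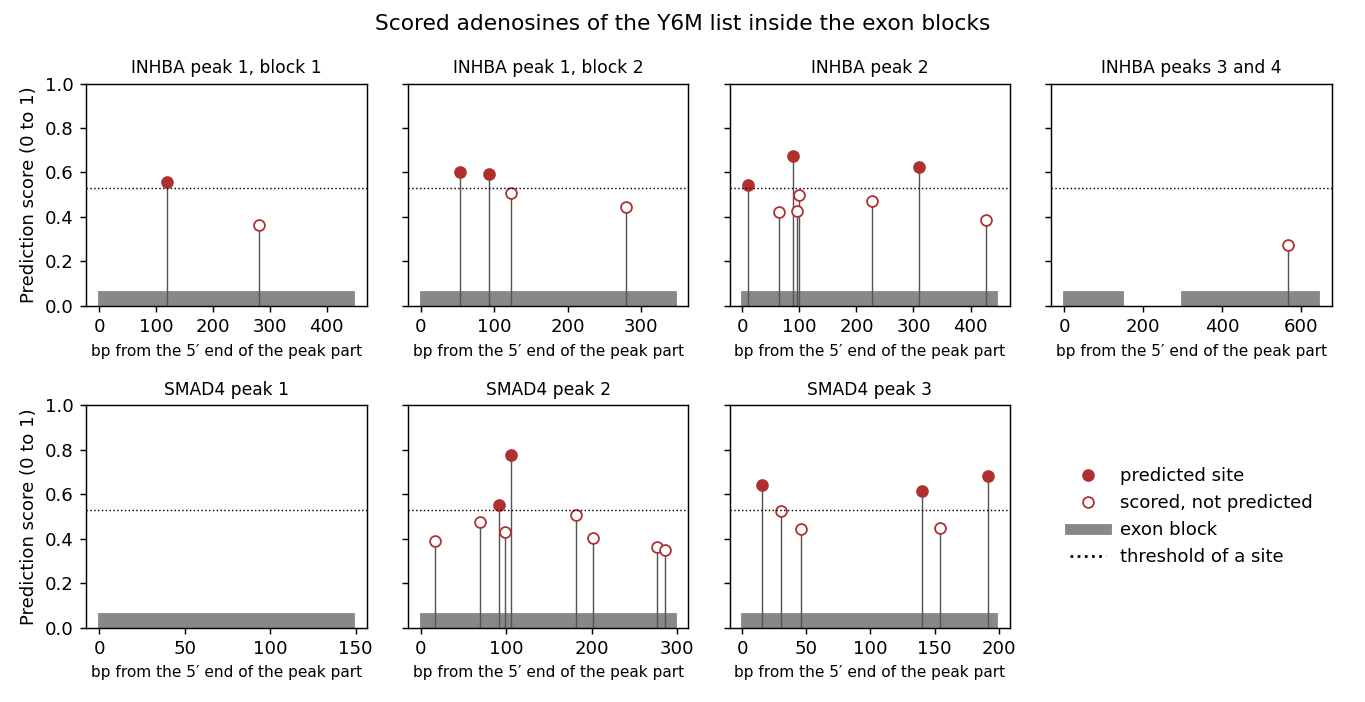
Prediction score (0 to 1) of each scored adenosine of the Y6M list against its distance in bp from the 5′ end of the peak part, with exon blocks in grey and the threshold of 0.528 dotted. Filled points are predicted sites, 6 in INHBA and 5 in SMAD4, and INHBA peak 3 and SMAD4 peak 1 are empty.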

How the data were processed

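Testis input RNA of 3 Y6M and 3 Y30M yaks was compared. Per the labels and methods, the authors trimmed reads with Trimmomatic, aligned them to LU_Bosgru_v3.0 with HISAT2, and deposited FPKM per gene and input library (the tool behind it is not given in the sources used here). The deposited peak table, from MeTDiff over both groups, gives the ratio of IP to input as fold enrichment with its log10 FDR. Its further columns hold the authors' own comparison of ages (log2 fold changes, p-values and FDR) and were not used, so no methylation difference between ages is given. The deposited score of each adenosine runs from 0 to 1, and its tool is not given in the sources used here. Peak starts and adenosine positions were read as counted from 0 and are printed from 1.

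Genes above 0 in at least 1 library (19477 of 20953) were fitted with limma 3.58.1 (R 4.3.3) on log2(FPKM + 1), with age as the only term, plain empirical Bayes moderation and Benjamini-Hochberg adjustment over all of them. The scripts were tested on simulated data. Ratios within a library were compared by exact two-sided permutation tests (SciPy 1.17.1). Whole fragments were accepted within 0.001 of a whole number. They are the smallest that could be right, so the true ones may be a multiple. The FPKM values were not treated as counts.

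Symbols came from the names that the study's supplementary tables pair with IDs (2106 IDs with 1 name). INHBA, SMAD4 and each of the 52 pathway symbols with a paired ID were named, with the 5 genes most like each. Members, lists and rules were chosen with earlier results of these data known. Yaks of different ages are different animals, but libraries of the same replicate number deviated together (correlation of deviations from the group means 0.209, 0.283 and 0.604 for replicates 1, 2 and 3), so a fit with the replicate number as a block was an alternative. The others changed the pseudocount, filter, scaling, thresholds or libraries. A variance trend, robust variances, and leaving out both libraries numbered 3 were added after seeing the data. All 3 moderation options were run once the plain fit was known, and the plain fit was kept.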

Additional observations from a re-analysis of the deposited data

How the results depend on the processing

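INHBA and SMAD4 were lower in Y30M under every setting tried, and INHBA kept its call in all of them. Its log2 fold change was -4.23 to -3.76 with 1 library left out, and its adjusted p ranged from 1.86e-06 to 0.00275. SMAD4 ranged from -1.09 to -0.657 with 1 library left out. Its call was lost at a fold change of at least 2 (-0.928) and, in a fit added after seeing the data, without both libraries numbered 3 (-0.935). Its limma adjusted p ranged from 0.0035 to 0.111, and was above 0.05 with FPKM rescaled to TPM (0.0701) and with no filter (0.0554). The number of genes called was 8143 to 8945 with 1 library left out. With the replicate block it was 9747, SMAD4 had an adjusted p of 0.0307 and INHBA 0.001, and the block changed no call among the 11 pathway genes. Other variance moderation, also tried after seeing the data, gave 9080 genes with a trend, 8904 with robust variances and 9149 with both, against 9011. INHBA then had adjusted p of 6.74e-05, 0.000421 and 7.05e-05, and SMAD4 0.0353, 0.0411 and 0.0387. The trend cost BMPR2 its call. The 2 pathway genes called higher became 1 at an adjusted p of at most 0.05, 1 at a fold change of at least 2, and 1 to 2 with 1 library left out. The 5 called lower became 3 at a fold change of at least 2 and 3 without both libraries numbered 3. The cause was not tested.

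Rescaling FPKM to TPM moved the median log2 fold change of all genes tested from 0.0355 to 0.114, and gave -3.88 for INHBA and -0.773 for SMAD4. At an FDR of at most 0.05, 0 of the 4 INHBA peaks and 0 of the 3 SMAD4 peaks were left. An overlap of 50% of both with a Y6M peak left 2 and 1. The predicted adenosines, 43 in INHBA and 64 in SMAD4, became 17 and 34 at a score of at least 0.6, 1 and 2 at 0.7, and 6 and 5 in exon blocks, because fewer adenosines enter. Depth did not limit either gene, but GDF9 rested on few juvenile fragments.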

Other observations

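The Y6M list held a further peak within SMAD4, at 48542145 to 48542294 on chromosome 21, that overlapped none of the 3 peaks compared between ages. It spanned 150 bp, and 4 of its 5 scored adenosines were predicted, with a highest score of 0.597.

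ACVR2A and BMPR2 lie on chromosome 2, a chromosome that both lists cover. The ACVR2A peak began at 97003598 in both. It held 36 scored adenosines in Y6M, of which 13 were predicted, and 39 in Y30M, of which 14 were predicted. For BMPR2, the region from 50233432 was in both lists. In Y6M it was split into 2 peaks, with 6 of 52 and 1 of 3 scored adenosines predicted, and in Y30M it was 1 peak with 5 of 58. The BMPR2 peak at 50292263 to 50293953 was in the Y6M list, with 5 of 37 scored adenosines predicted, and had no overlapping peak in the Y30M list. With 1 list per age, these differences have no replicate check.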
